A study of Mus musculus with 30 samples.

Results

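Fc gamma receptors bind the constant part of IgG on the surface of leukocytes, and 6 genes of this system were followed here among 23267 gene names tested. They were taken as the array features named Fcgr1, Fcgr3, Fcgr4, Fcgr2b, Fcer1g or Fcgrt, and each of the 6 had 1 probe. Fcgr1, Fcgr3 and Fcgr4 encode the activating receptors of the mouse, and Fcgr2b encodes its inhibitory receptor. Fcer1g encodes the common gamma chain, and Fcgrt encodes the heavy chain of the neonatal Fc receptor, FcRn.

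An activating receptor has no signalling motif of its own and pairs with the common chain, whose cytoplasmic motif is phosphorylated by Src family kinases and then recruits the kinase Syk. The inhibitory receptor carries its own motif, which recruits the lipid phosphatase encoded by Inpp5d and damps that signal. Macrophages, monocytes and neutrophils carry both kinds, B cells carry the inhibitory receptor, and FcRn, which pairs with B2m, returns IgG and albumin to the blood. The question the design raises for these genes is whether they respond to aortic injury alike in mice with and without antibody-producing cells.

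Arterial RNA was measured on 30 one-colour arrays in 10 groups of 3, all C57BL/6. The groups were uMT mice, which lack B cells from birth, and wild-type (WT) mice, each 7 or 42 days after 0.5 M CaCl2 was laid around the abdominal aorta, at the same days after a sham operation with saline, and before any operation (pre). No uMT or WT group differed by any further allele or agent that the labels name, and age and sex were not given there. The labels gave every sample the tissue name of an aneurysm, sham and pre aortas too, and did not say whether the 3 samples of a group came from separate mice, so p-values measure only the spread between these samples. All 6 smooth muscle markers examined were well above background on every array. In such whole tissue, fewer cells of a type and less RNA per cell cannot be told apart.

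Levels are given as log2 signal relative to the 75th percentile of the same array, so a level of 0 lies at that percentile, and a difference of 1 is a doubling. Between 36.5% and 61.8% of probes were well above background on an array. The lowest was WT sham day 42 replicate 2, which correlated with its group at a mean r of 0.811, and 5 further arrays (uMT pre replicate 2, uMT sham day 42 replicates 2 and 3, uMT CaCl2 day 42 replicates 1 and 2) lay under 50%. Because the first of these widens the spread of every comparison, calls of the members are given on all 30 arrays and again on the 29 without it. Other genes are given on 30 arrays only. The word "called" means an adjusted p under 0.05 over all 23267 names (limma, Benjamini-Hochberg). The arrays lay on 5 slides, and WT sham day 42 replicate 2 was the only one on its slide. No slide held both CaCl2 and sham arrays of uMT mice on either day, or of WT mice on day 7. In uMT mice slide and treatment cannot be told apart. On day 7 in WT mice a fixed slide block could be fitted only through other groups that lay on several slides.

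The antibody side of the design was checked first. Jchain, which joins the units of secreted polymeric antibody, was not well above background on any of the 15 uMT arrays. On the WT CaCl2 arrays it lay at 0.38, 0.31 and 1.29 on day 7 and at 4.44, 5.27 and 6.85 on day 42, all 6 well above background. Compared with WT mice, its level in uMT mice was at least 21.9-fold lower after CaCl2 on day 7 (adjusted p = 0.0104) and at least 378-fold lower on day 42 (adjusted p = 3.8e-06), where a bound sets the WT mean against the dimmest signal that was well above background. The first immunoglobulin heavy constant gamma 1 probe was well above background on 0 of 15 uMT arrays, on 2 of 3 WT CaCl2 day 7 arrays, on 3 of 3 WT CaCl2 day 42 arrays and on no other WT array. A further gamma 1 probe was well above background on the 3 WT CaCl2 day 42 arrays only, and the gamma 2C probe on 2 of those 3, on 1 uMT sham day 7 array and on 1 WT sham day 7 array.

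**Figure D1:**
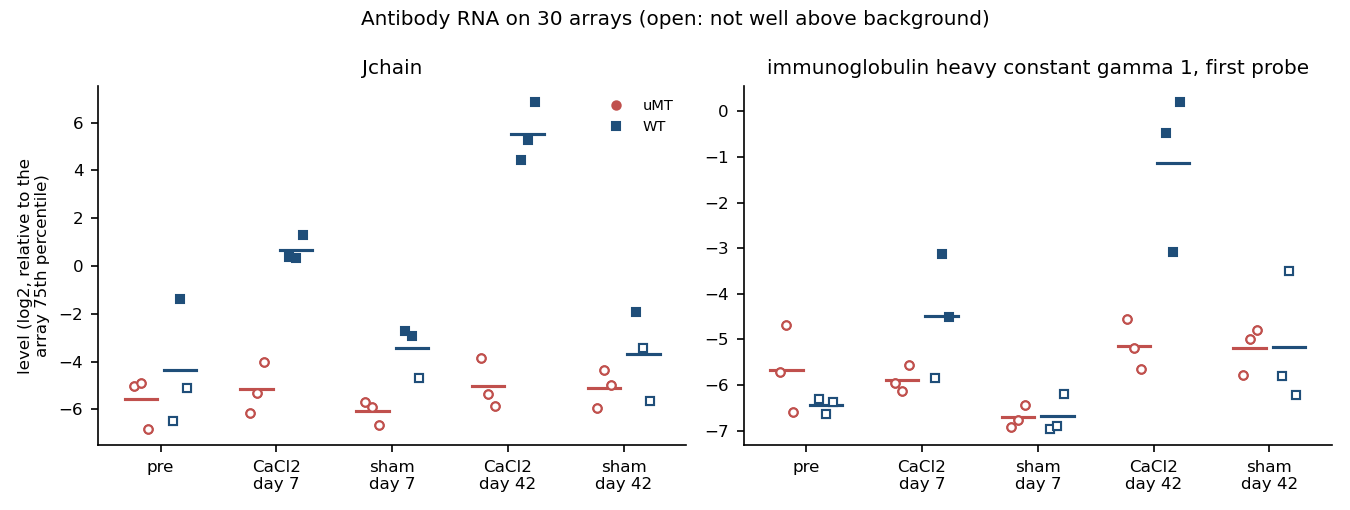
Level (log2, relative to the 75th percentile of the array) of Jchain (left) and of the first immunoglobulin heavy constant gamma 1 probe (right) on each array, uMT beside WT in each condition; bars are means of 3 arrays and open points were not well above background. Both stood highest on the WT CaCl2 day 42 arrays, and no uMT array was well above background.

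The promoters of the 4 receptors are shown because these genes were correlated across the arrays, as given further on, and their starts are known to be read by factors of myeloid cells and of interferon gamma signalling. They are the 250 bases before the RefSeq start (GRCm38.p6), 5′ to 3′ on the strand of the gene, with capitals for the letters TTCNNNGAA, the interferon gamma activated site, and GAGGAA, the core bound by PU.1, on either strand. The regions are chr3:96293970-96294219, minus strand, for Fcgr1, chr1:171059404-171059653, minus strand, for Fcgr3, chr1:171018676-171018925, plus strand, for Fcgr4, and chr1:170976072-170976321, minus strand, for Fcgr2b.
Fcgr1: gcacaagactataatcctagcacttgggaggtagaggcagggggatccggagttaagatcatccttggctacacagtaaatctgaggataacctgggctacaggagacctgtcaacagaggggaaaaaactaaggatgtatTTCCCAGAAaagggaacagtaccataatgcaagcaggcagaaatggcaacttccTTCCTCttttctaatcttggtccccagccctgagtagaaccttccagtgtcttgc
Fcgr3: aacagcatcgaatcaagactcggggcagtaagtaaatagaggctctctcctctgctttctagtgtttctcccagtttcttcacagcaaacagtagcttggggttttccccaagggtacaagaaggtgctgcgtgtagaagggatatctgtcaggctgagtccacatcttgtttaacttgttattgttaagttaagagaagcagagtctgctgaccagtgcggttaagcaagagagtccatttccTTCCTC
Fcgr4: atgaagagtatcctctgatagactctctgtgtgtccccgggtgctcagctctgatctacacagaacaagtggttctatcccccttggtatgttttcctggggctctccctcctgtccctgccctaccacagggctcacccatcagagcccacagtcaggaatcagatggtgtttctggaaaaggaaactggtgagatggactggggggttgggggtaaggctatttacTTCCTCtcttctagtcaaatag
Fcgr2b: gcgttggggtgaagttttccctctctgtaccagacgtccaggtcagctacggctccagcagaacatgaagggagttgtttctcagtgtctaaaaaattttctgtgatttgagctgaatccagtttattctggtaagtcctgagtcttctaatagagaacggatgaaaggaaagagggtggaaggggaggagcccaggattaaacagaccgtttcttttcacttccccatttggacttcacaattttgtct

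Of these letters, TTCNNNGAA was in the Fcgr1 promoter, 109 bases before the start, and in 7.02% of 32851 RefSeq promoter stretches of this length. GAGGAA was on the opposite strand in the promoters of the 3 activating receptors, 55 bases before the start in Fcgr1, 6 in Fcgr3 and 22 in Fcgr4, and in 23.3% of all stretches. Fcgr3 has a further listed start, whose window holds the same match. The core of an interferon-stimulated response element (GAAA, any 2 bases and GAAA, on either strand) was in the Fcgr4 promoter and in 2.98% of all stretches. None of these letters was in the windows of Fcgr2b, Fcer1g or Fcgrt.

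The probes of 60 bases lie, on mm9 as the files give it, at chr3:96086839-96086898 for Fcgr1, chr1:172984129-172984188 for Fcgr3, chr1:172959738-172959797 for Fcgr4, chr1:172890988-172891047 for Fcgr2b, chr1:173159794-173159853 for Fcer1g and chr7:52350556-52350615 for Fcgrt. The Fcgr4 probe is on the plus strand and the other 5 are on the minus strand. The Fcgr3 probe is printed because the extracellular parts of Fcgr3 and Fcgr2b are nearly identical in the mouse, and whether this probe also binds Fcgr2b RNA was not tested.
Fcgr3 probe: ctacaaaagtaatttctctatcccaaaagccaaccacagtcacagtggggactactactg

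On day 42 after CaCl2 the activating receptors, the inhibitory receptor and the common chain had higher mean levels than after sham in both genotypes. In uMT mice 4 of the 6 genes rose (Fcgr1, Fcgr4, Fcgr2b and Fcer1g), and the same 4 rose in WT mice. Of all names tested, 4.62% rose in uMT mice and 6.8% in WT mice. By the fitted differences these 4 lay between 3.195-fold (Fcgr1) and 7.55-fold (Fcgr2b) above sham in uMT mice and between 2.95-fold (Fcgr1) and 8.67-fold (Fcer1g) in WT mice. These folds rest partly on sham signals that were not well above background, those of Fcgr1 and Fcgr3 on uMT sham day 42 replicate 3 and of all 4 receptors on WT sham day 42 replicate 2.

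Among the activating receptors, Fcgr1 encodes the high-affinity receptor. It lay at -0.32, -0.065 and -0.13 on the uMT CaCl2 day 42 arrays, against -0.59, -2.16 and -2.80 on the uMT sham arrays, a difference of 1.68 ± 0.46 (SE, n = 3 each, adjusted p = 0.0273). In WT mice it lay at 0.85, 0.78 and 0.93 after CaCl2, against -0.55, -1.79 and 0.22 after sham, a difference of 1.56 ± 0.46 (adjusted p = 0.0295). The CaCl2 and sham ranges of Fcgr1 did not overlap in either genotype. Here and below, the share of all names without overlap in a single comparison was not counted, so ranges are description only.

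Fcgr4, the receptor that binds IgG2a and IgG2b, lay at 1.685, 1.12 and 1.34 on the uMT CaCl2 arrays, against 0.20, -0.53 and -1.85 on the uMT sham arrays (difference 2.11 ± 0.54, adjusted p = 0.0200). In WT mice it lay at 2.19, 2.07 and 1.93 after CaCl2, against 0.15, -1.95 and 0.66 after sham (difference 2.45 ± 0.54, adjusted p = 0.0056). Fcgr3, a low-affinity activating receptor also found on NK cells, lay at 1.95, 1.58 and 2.68 after CaCl2 in uMT mice, against 1.23, -0.14 and -2.92 after sham. All 3 of its CaCl2 arrays were above all 3 sham arrays, but the difference of 2.68 ± 0.83 missed the threshold (adjusted p = 0.0553). Its WT difference of 2.34 ± 0.83 missed it as well (adjusted p = 0.0728).

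The inhibitory receptor moved with them. Fcgr2b lay at 2.41, 1.96 and 2.34 on the uMT CaCl2 arrays, against 0.76, -1.002 and -1.79 on the uMT sham arrays (difference 2.92 ± 0.75, adjusted p = 0.0201). In WT mice it lay at 2.67, 2.89 and 2.81 after CaCl2, against 1.31, -3.18 and 1.01 after sham (difference 3.07 ± 0.75, adjusted p = 0.0108). The CaCl2 arrays of both genotypes lie close together. The 3 uMT sham arrays spread over more than 2 log2 units, and in WT mice replicate 2 alone lies far from the other two sham arrays.

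The common chain Fcer1g lay at 6.09, 5.55 and 5.60 on the uMT CaCl2 arrays, against 4.14, 3.46 and 2.39 on the uMT sham arrays (difference 2.41 ± 0.72, adjusted p = 0.0448). In WT mice it lay at 5.58, 5.61 and 5.97 after CaCl2, against 3.79, -0.17 and 4.18 after sham (difference 3.12 ± 0.72, adjusted p = 0.0073). Fcgrt did not follow. It lay at 2.35, 1.96 and 2.47 after CaCl2 in uMT mice, against 3.02, 1.89 and 2.09 after sham, and its difference was -0.08 in uMT mice (95% interval -1.29 to 1.14) and 0.80 in WT mice (-0.41 to 2.01). The WT value turned to -0.39 without WT sham day 42 replicate 2, where Fcgrt lay at 0.59, against 4.08 and 4.23 on the other two sham arrays.

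These day 42 values rest in part on dim sham arrays. Without WT sham day 42 replicate 2 the WT differences were smaller, 1.02 for Fcgr1, 1.66 for Fcgr4, 1.63 for Fcgr2b and 1.73 for Fcer1g. Of these, Fcgr4, Fcgr2b and Fcer1g stayed called (adjusted p = 0.0299, 0.0405 and 0.0245) beside 7.14% of all names, and Fcgr1 did not (adjusted p = 0.13). In uMT mice 5 of the 6 were then called, Fcgr3 among them (2.68 ± 0.64, adjusted p = 0.0076), beside 8.87% of all names. The uMT rise has its own dim arrays: replicate 1 of uMT sham day 42, the only one of its group with over 50% of probes well above background, was the highest of its group for each of the 6 genes. Without all 6 dim arrays, which leaves 1 uMT array in each day 42 group, no member was called in uMT mice, and none was called without uMT sham day 42 replicate 3 or without uMT CaCl2 day 42 replicate 1. The count was 1 without uMT sham day 42 replicate 2 and 2 without uMT CaCl2 day 42 replicate 2 or replicate 3.

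Slide could be held fixed only in part. On the slide that held all 3 WT CaCl2 day 42 arrays and 1 WT sham day 42 array, the difference between them was 0.63 for Fcgr1, 1.18 for Fcgr3, 1.41 for Fcgr4, 1.77 for Fcgr2b, 1.53 for Fcer1g and -0.46 for Fcgrt. With 1 sham array these are values with no test. With slide as a fixed block no member was called in WT mice on day 42, with the same differences as within that slide, and the uMT comparison could not be fitted. With slide as a random block (estimated correlation 0.78) none was called in either genotype. Without WT sham day 42 replicate 2 that correlation was -0.07, so the random block no longer allowed for slide, and 5 members were called in uMT mice and 3 in WT mice.

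**Figure D2:**
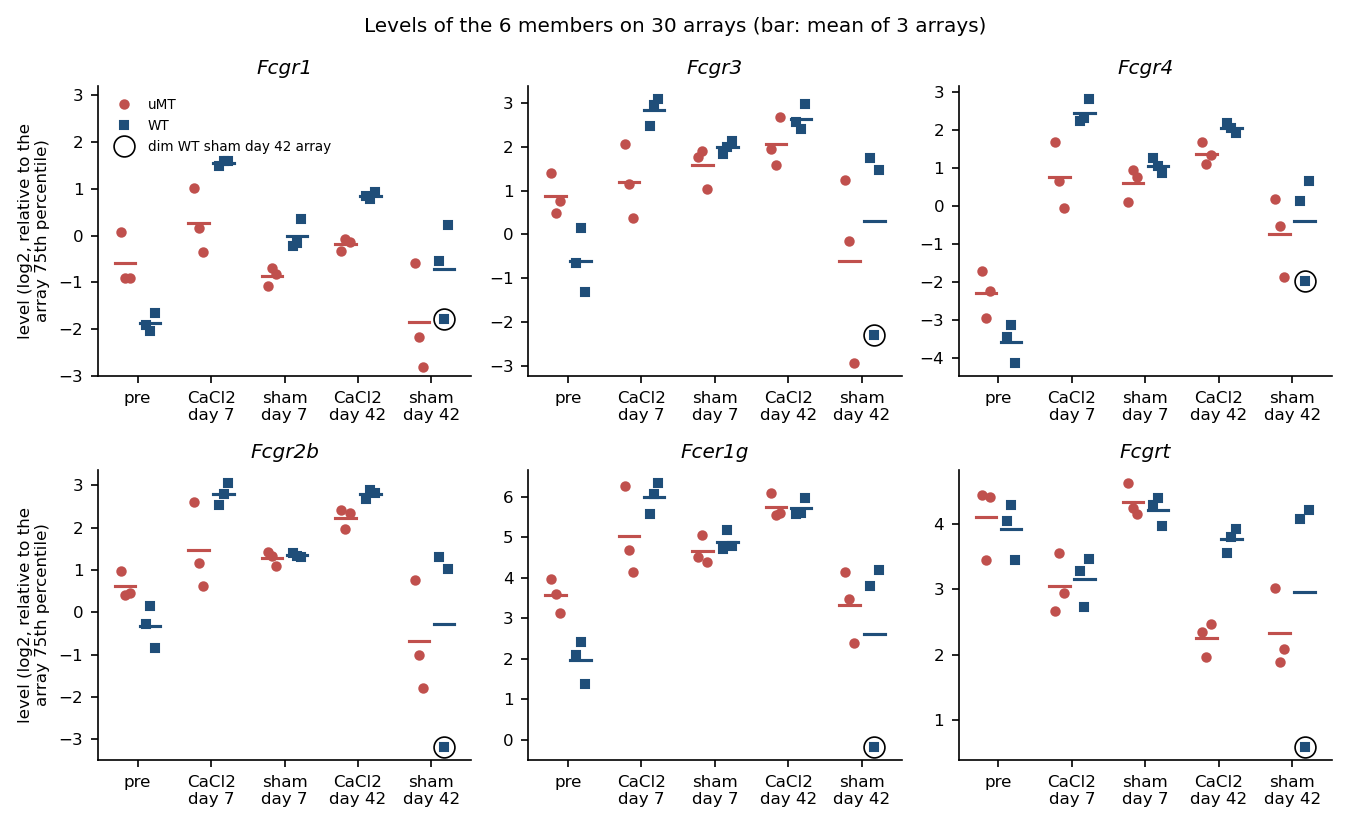
Level (log2, relative to the 75th percentile of the array) of each of the 6 genes on every array, uMT beside WT in each condition; bars are means of 3 arrays and the ring marks WT sham day 42 replicate 2. On day 42 the 3 uMT CaCl2 arrays lie above the 3 uMT sham arrays for Fcgr1, Fcgr3, Fcgr4, Fcgr2b and Fcer1g, and the ringed array is the lowest WT sham day 42 array for all 6 genes.

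One week after CaCl2 the picture was narrower. None of the 6 genes was called in uMT mice (limma, 2 at an unadjusted p under 0.05, Fcgr1 and Fcgrt), where 0.503% of all names rose. In WT mice 1 rose, Fcgr1, beside 2.98% of all names. It lay at 1.49, 1.60 and 1.59 on the WT CaCl2 day 7 arrays, against -0.23, -0.16 and 0.36 on the WT sham arrays, a difference of 1.57 ± 0.46 (adjusted p = 0.0387). The call was lost when any 1 array of the WT CaCl2 or WT sham day 7 group was left out, and with slide as a random or fixed block on all arrays.

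In uMT mice Fcgr1 lay at 1.02, 0.16 and -0.35 after CaCl2, against -1.08, -0.70 and -0.82 after sham, with no overlap and a difference of 1.14 ± 0.46 (adjusted p = 0.22). The 3 uMT CaCl2 day 7 arrays spread widely for the other receptors. Fcgr2b lay at 2.61, 1.16 and 0.63 there, against 1.44, 1.34 and 1.09 after sham, so that replicate 1 was above all sham arrays and replicate 3 below them. The uMT differences were 0.16 for Fcgr4 (95% interval -0.96 to 1.28), 0.17 for Fcgr2b (-1.38 to 1.73), 0.37 for Fcer1g (-1.12 to 1.85) and -0.38 for Fcgr3 (-2.10 to 1.34).

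In WT mice the other receptors were higher on day 7 without overlap but not called on 30 arrays. How many of all names separated in this way was not counted. Fcgr4 lay at 2.24, 2.32 and 2.81 after CaCl2, against 1.27, 1.07 and 0.86 after sham (difference 1.39, adjusted p = 0.13). Fcgr2b lay at 2.54, 2.81 and 3.05, against 1.39, 1.32 and 1.31 (difference 1.46, adjusted p = 0.28). On 29 arrays both were called (adjusted p = 0.0304 for Fcgr4 and 0.0309 for Fcgr2b) with Fcgr1 (0.0100), beside 9.31% of all names that rose. Fcgr3, with a difference of 0.85, was not called on 30 arrays (limma, adjusted p = 0.64) or on 29 (0.37). Fcer1g, with a difference of 1.11, was not called on either (limma, adjusted p = 0.42 and 0.078).

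Fcgrt went the other way on day 7. It lay at 2.67, 3.56 and 2.94 after CaCl2 in uMT mice, against 4.63, 4.25 and 4.15 after sham, and at 3.28, 2.73 and 3.47 in WT mice, against 4.30, 4.40 and 3.97. Neither pair of groups overlapped, and the differences were -1.29 ± 0.59 in uMT mice (adjusted p = 0.30) and -1.06 ± 0.59 in WT mice (adjusted p = 0.32). On 29 arrays both falls were called (adjusted p = 0.0172 in uMT and 0.0222 in WT), beside 4.93% of all names that fell in uMT mice and 9.09% in WT mice.

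**Figure D3:**
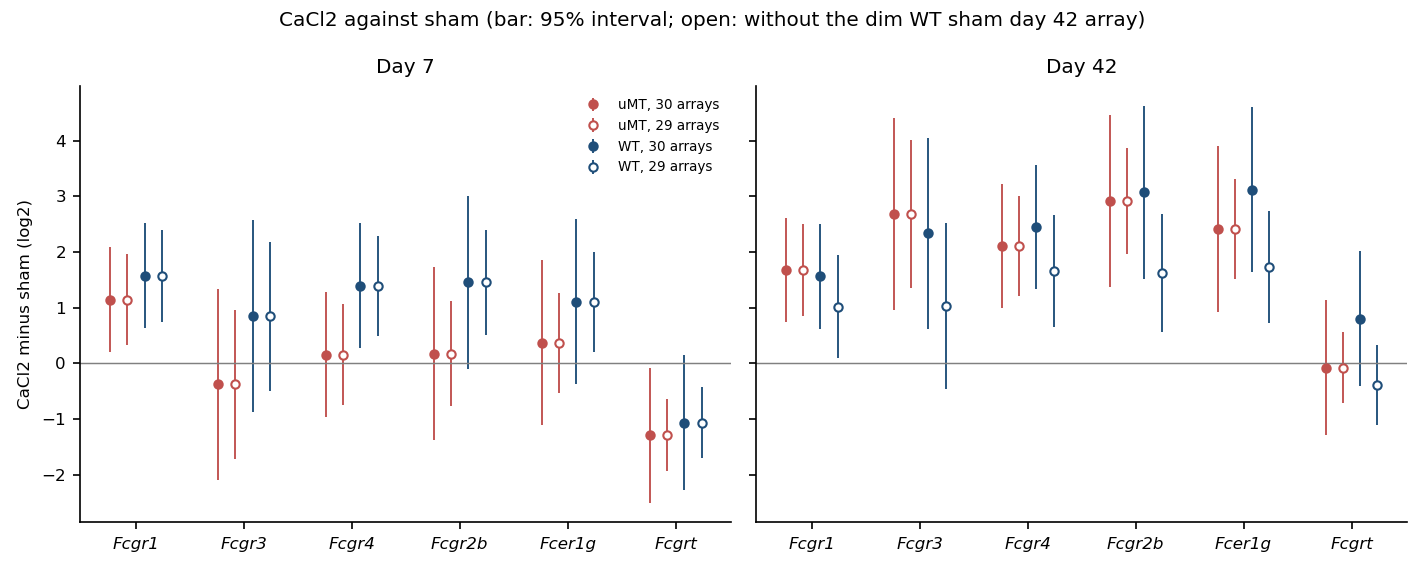
Difference between CaCl2 and sham (log2) for the 6 genes on day 7 (left) and day 42 (right), uMT beside WT; points are fitted differences, bars their 95% intervals, and open points leave out WT sham day 42 replicate 2. On day 42 the 5 receptor and chain genes are above 0 in both genotypes, and on day 7 Fcgrt is below 0 in both.

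Whether B cells changed the response was tested directly as the difference between the uMT and the WT response. No member was called on day 7 (0% of all names called) or on day 42 (0.107%), none had an unadjusted p under 0.05 on either day in limma, and none was called under any alternative run. In the fit without a slide block, the uMT response on day 7 was the lower one by point estimate for all 6. The widest gap was for Fcgr2b at -1.28 (95% interval -3.48 to 0.91) and Fcgr4 at -1.24 (-2.82 to 0.35). With slide as a random block on all arrays, the day 7 values of Fcgr1 and Fcgrt turned to 0.07 and 0.08, neither called. On day 42 the difference in response was 0.12 for Fcgr1 (-1.22 to 1.45), 0.35 for Fcgr3 (-2.09 to 2.78), -0.34 for Fcgr4 (-1.93 to 1.24), -0.16 for Fcgr2b (-2.35 to 2.04) and -0.70 for Fcer1g (-2.80 to 1.40). The intervals leave room for a several-fold difference either way and so do not show that the genotypes respond alike. On 29 arrays the day 42 values were 0.66, 1.65, 0.44, 1.29 and 0.68 for these 5 genes in the same order, none called, so that those of Fcgr4, Fcgr2b and Fcer1g turned from below 0 to above it.

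The balance of activating to inhibitory receptor was measured as the log2 level of Fcgr1, Fcgr3 or Fcgr4 minus that of Fcgr2b on the same array. Since probes differ in brightness, only changes of this value carry meaning. Within uMT mice the mean change after CaCl2, averaged over both days, was -0.14 for Fcgr1, -0.39 for Fcgr3 and -0.41 for Fcgr4. Within WT mice it was -0.70 for Fcgr1, -0.67 for Fcgr3 and -0.34 for Fcgr4. Without WT sham day 42 replicate 2, on which none of these probes was well above background, the WT changes were -0.25 for Fcgr1, -0.60 for Fcgr3 and -0.01 for Fcgr4. In 12 two-sided exact permutation tests within day (400 exchanges, smallest possible p 0.005), none passed after Benjamini-Hochberg adjustment over the 12, and 2 had an unadjusted p under 0.05.

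The smallest p was for Fcgr3 over Fcgr2b after CaCl2 in WT mice. That value changed by -0.61 on day 7 and by -0.74 on day 42, and p = 0.005, the smallest these exchanges can give, became 0.06 after adjustment in the exact permutation test. On day 7 it ranged from -0.07 to 0.14 on the WT CaCl2 arrays, against 0.43 to 0.82 on the WT sham arrays. On day 42 it ranged from -0.49 to 0.16, against 0.44 to 0.88, where the highest value is that of replicate 2, with neither probe well above background. The other two sham arrays of day 42 had 0.44 and 0.45, still above all 3 CaCl2 arrays. Without replicate 2 the day 42 change was -0.59, with an exact permutation p = 0.01 over both days (adjusted 0.12). The change in uMT mice was -0.55 on day 7 and -0.23 on day 42 (exact permutation p = 0.27, adjusted 0.41). Between uMT and WT mice after CaCl2, Fcgr4 over Fcgr2b differed by -0.25 (exact permutation p = 0.045, adjusted 0.27), and the other 2 ratios differed by -0.21 for Fcgr1 and -0.16 for Fcgr3.

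Fcgr1 over Fcgr2b differed in opposite directions on the 2 days within uMT mice. It averaged -1.19 ± 0.35 after CaCl2 on day 7 (SD, n = 3), against -2.16 ± 0.32 after sham, and -2.41 ± 0.36 after CaCl2 on day 42, against -1.17 ± 0.17 after sham, where Fcgr1 was not well above background on replicate 3. The ranges of CaCl2 and sham arrays did not overlap on either day. Whether the change differed between days was not tested.

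**Figure D4:**
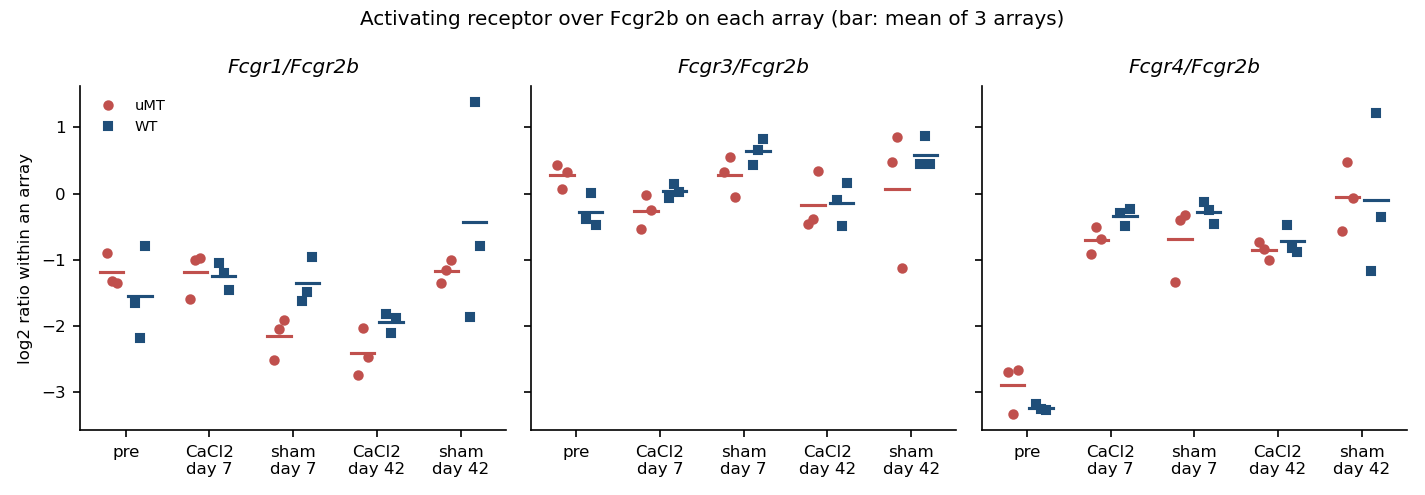
Log2 level of Fcgr1, Fcgr3 or Fcgr4 minus that of Fcgr2b on each array, uMT beside WT in each condition; bars are means of 3 arrays. For Fcgr3 the WT CaCl2 arrays lie below the WT sham arrays on both days, and for Fcgr4 the pre arrays of both genotypes lie below all other arrays, from -3.34 to -2.67 in uMT mice and from -3.27 to -3.19 in WT mice.

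Between the genotypes, none of the 6 genes was called on 30 arrays in any condition, beside 0.0903% of all names before operation, 0.0172% in sham mice on day 7, 0.219% after CaCl2 on day 7, 4.13% in sham mice on day 42 and 1.31% after CaCl2 on day 42. Averaged over the 5 conditions, 2.97% of all names were called and no member was. In limma the number with an unadjusted p under 0.05 was 3 before operation, 0 in sham mice on day 7, 2 after CaCl2 on day 7, 1 in sham mice on day 42, 2 after CaCl2 on day 42 and 1 on average. The same held for 11.9%, 1.1%, 11.4%, 18.9%, 16.4% and 16.9% of all names in that order. The arrays of uMT and WT mice in the same condition shared no slide. After CaCl2 and on average, slide and genotype cannot be told apart. For pre and sham mice a fixed slide block could be fitted only through other groups that lay on several slides. That block turned the sham day 7 differences of Fcgr3 and Fcgr2b from below 0 to 0.66 and 0.79. It turned the sham day 42 difference of Fcer1g from above 0 to -0.26, and none of these was called.

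By point estimate, Fcgr1, Fcgr3 and Fcgr4 were higher in uMT than in WT mice before operation and lower after CaCl2 on day 7. With all arrays none of these differences was called, and the change of direction between conditions was not tested. It did not follow injury alone, since Fcgr1 was also lower in uMT mice after sham on day 7 (-0.86). For Fcer1g the difference was below 0 on day 7 and above 0 on day 42, in sham mice (0.73) and after CaCl2 (0.03). Before operation Fcgr1 lay at 0.08, -0.91 and -0.90 in uMT mice, against -1.92, -2.05 and -1.65 in WT mice, a difference of 1.29 ± 0.46 (adjusted p = 0.22). After CaCl2 on day 7 it lay at 1.02, 0.16 and -0.35 in uMT mice, against 1.49, 1.60 and 1.59 in WT mice, a difference of -1.28 ± 0.46 (adjusted p = 0.26). The groups did not overlap in either condition. Between uMT and WT mice, 16.8% of all names lay apart in opposite directions across the 5 conditions. Fcgr4 showed the same order, 1.28 before operation and -1.70 after CaCl2 on day 7, as did Fcgr3 with 1.49 and -1.64. After CaCl2 on day 42, slide as a random block on all arrays turned Fcgr3, Fcgr4 and Fcgr2b from below 0 to 0.30, 0.14 and 0.35, none called.

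On 29 arrays some of these differences were called. Before operation Fcer1g was higher in uMT mice by 1.61 ± 0.43 (adjusted p = 0.0312, beside 5.52% of names higher), with 3.97, 3.60 and 3.14 against 2.09, 2.43 and 1.38 in WT mice. After CaCl2 on day 7 Fcgr4 was lower in uMT mice (difference -1.70 ± 0.43, adjusted p = 0.0469, beside 1.32% of names lower). In sham mice on day 42 Fcgr1, Fcgr3, Fcgr2b and Fcgrt were lower in uMT mice, with differences of -1.68, -2.22, -1.84 and -1.82, beside 18.7% of all names, in a comparison whose uMT group holds 2 dim arrays of 3. Averaged over conditions Fcgr1, Fcgr2b and Fcgrt were lower in uMT mice, with differences of -0.71, -0.57 and -0.63, beside 13.4% of all names.

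Fcgrt, the FcRn heavy chain, had a lower mean in uMT than in WT mice late after CaCl2, though not called on 30 arrays. After CaCl2 on day 42 it lay at 2.35, 1.96 and 2.47 in uMT mice, against 3.56, 3.81 and 3.94 in WT mice, without overlap. The difference was -1.51 ± 0.59 on 30 arrays (adjusted p = 0.20) and -1.51 ± 0.31 on 29 (adjusted p = 0.0037, beside 10.7% of names lower). The array left out belongs to neither of these groups, and slide and genotype cannot be told apart here. B2m, the partner of Fcgrt, was not called in the CaCl2 comparisons with sham, with differences of -0.52 on day 7 and 0.63 on day 42 in uMT mice and of 0.15 and 1.02 in WT mice. The difference of B2m between the genotypes is not reported here.

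**Figure D5:**
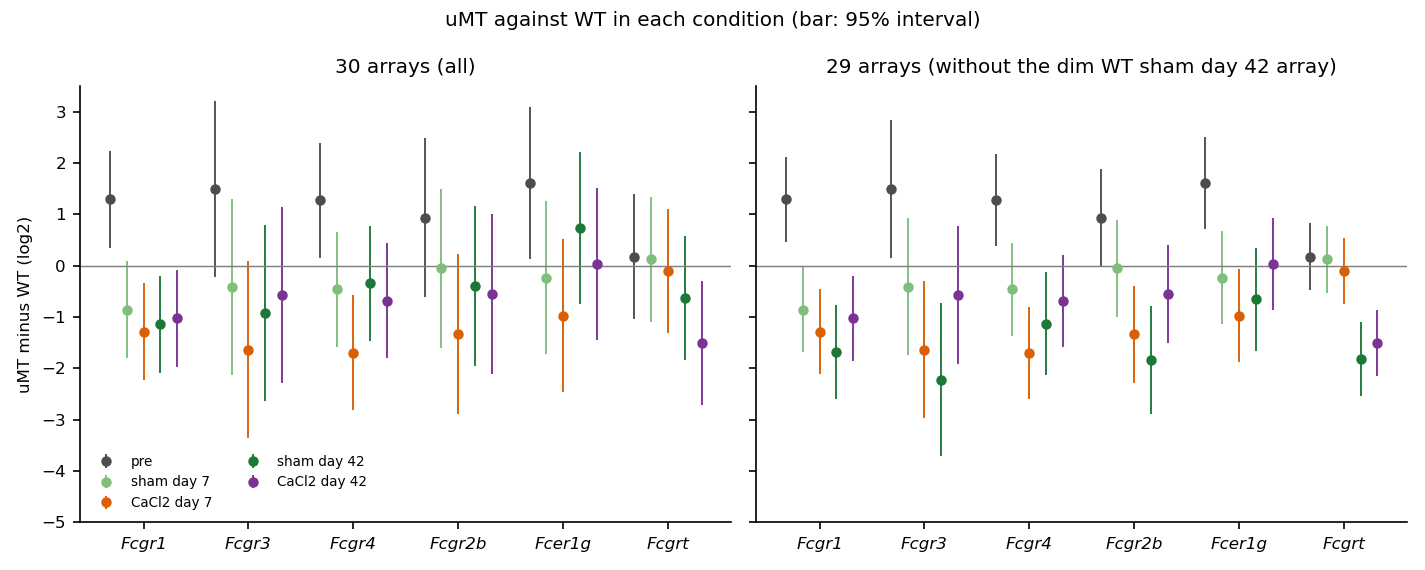
Difference between uMT and WT (log2) for the 6 genes in each of the 5 conditions, on 30 arrays (left) and without WT sham day 42 replicate 2 (right); points are fitted differences and bars their 95% intervals. The 4 receptors and Fcer1g are above 0 before operation, and the 4 receptors are below 0 in every later condition, in fits without a slide block.

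A sham operation was itself followed by higher Fcgr4. Averaged over days 7 and 42 its difference from pre was 2.22 ± 0.47 in uMT mice (adjusted p = 0.0085, beside 3.34% of names that rose) and 3.90 ± 0.47 in WT mice (adjusted p = 7.5e-05, beside 1.39% of names that rose). Before operation Fcgr4 lay at -1.71, -2.93 and -2.22 in uMT mice and at -3.45, -3.11 and -4.12 in WT mice, the lowest group of each genotype, with uMT pre replicate 2 not well above background. On the sham day 7 arrays it lay at 0.11, 0.94 and 0.77 in uMT mice and at 1.27, 1.07 and 0.86 in WT mice. On the sham day 42 arrays it lay at 0.20, -0.53 and -1.85 in uMT mice and at 0.15, -1.95 and 0.66 in WT mice. The sham and pre ranges of Fcgr4 thus overlapped in uMT mice and not in WT mice. No other member was called in either genotype on 30 arrays, and the uMT call of Fcgr4 was lost without uMT pre replicate 2. On 29 arrays all 4 receptors and Fcer1g rose in WT mice, by 1.78 for Fcgr1, 2.40 for Fcgr3, 4.30 for Fcgr4, 1.58 for Fcgr2b and 2.47 for Fcer1g, beside 2.38% of names. In uMT mice Fcgr4 alone rose on 29 arrays (beside 9.22% of names) and Fcgrt fell by 0.77 (adjusted p = 0.0385, beside 16.4% of names that fell). The uMT and WT sham effects were not compared by a test.

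Between day 7 and day 42 after CaCl2, both days of a genotype lying on 1 slide, no member was called in uMT mice (0.971% of names called) or in WT mice (0.55%), and none had an unadjusted p under 0.05. In uMT mice the later day was higher by 0.87 for Fcgr3, 0.62 for Fcgr4, 0.77 for Fcgr2b and 0.72 for Fcer1g, and lower for Fcgr1, with -0.45, and Fcgrt, with -0.80. In WT mice the differences were -0.71 for Fcgr1, -0.19 for Fcgr3, -0.39 for Fcgr4, -0.01 for Fcgr2b, -0.28 for Fcer1g and 0.61 for Fcgrt.

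In the order of group means, WT CaCl2 day 7 was highest for the 4 receptors and Fcer1g. For Fcgr1 its range stood clear of the next group, WT CaCl2 day 42, and each later neighbour in the order overlapped. For Fcgr4 the ranges of WT CaCl2 day 7, WT CaCl2 day 42 and uMT CaCl2 day 42 followed each other without overlap, and at the low end WT pre stood clear of uMT pre, which overlapped uMT sham day 42. For Fcgr2b both WT CaCl2 groups overlapped each other and stood clear of uMT CaCl2 day 42. For Fcer1g the top 6 groups formed an overlapping chain that stood clear of uMT pre, and for Fcgr3 every neighbour overlapped. For Fcgrt both sham day 7 groups and both pre groups led, and uMT CaCl2 day 42 was lowest at a mean of 2.26 ± 0.27 (SD, n = 3). WT sham day 42 stood at rank 8 of 10 for Fcgrt, and at rank 3, above both pre groups, without its replicate 2. Without that array it also stood at rank 5 for Fcgr1 and Fcgr3 and at rank 7 for Fcgr2b and Fcer1g.

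The machinery below the receptors was described from lists chosen with earlier results of these data known. Of 13 activating signalling genes tested, 1 rose on day 7 in uMT mice and 5 in WT mice, and 10 rose on day 42 in uMT mice and 9 in WT mice, with none lower. The list's median difference on day 42 was 2.71 in uMT mice, beside -0.04 over all names, and 1.92 in WT mice, beside 0.05. Syk, the kinase docked by the common chain and named here after its values were seen, rose on day 42 by 1.93 ± 0.46 in uMT mice (adjusted p = 0.0123) and 1.92 ± 0.46 in WT mice (adjusted p = 0.0094). The Src family kinase Fgr rose on day 42 by 3.88 in uMT mice (adjusted p = 0.00071), and in WT mice, where no sham array had it well above background, it was at least 7.87-fold higher after CaCl2 (adjusted p = 0.0007). Btk, a kinase of the same cascade, rose on day 7 in uMT mice by 3.01 (adjusted p = 0.0348) and in WT mice by 3.39 (adjusted p = 0.0051).

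Of 10 inhibitory signalling genes, 4 rose on day 42 in uMT mice and 3 in WT mice, and 1, Inppl1, on day 7 in each genotype. Inpp5d, the phosphatase recruited by Fcgr2b, rose on day 42 by 2.14 ± 0.56 in uMT mice (adjusted p = 0.0228) and 2.80 ± 0.56 in WT mice (adjusted p = 0.0028). Ptpn6, which encodes the tyrosine phosphatase SHP-1, rose by 2.66 in uMT mice (adjusted p = 0.0156) and 2.91 in WT mice (adjusted p = 0.0065). The list's median on day 42 was 0.99 in uMT mice and 0.43 in WT mice.

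Of 7 other genes that use the common chain or its relative Tyrobp, 4 rose on day 42 in uMT mice and 5 in WT mice. Clec4e, the lectin Mincle, rose by 5.36 in uMT mice (adjusted p = 0.0020) and was at least 8.93-fold higher in WT mice (adjusted p = 0.0057), where no sham array had it well above background. On day 7 Clec4n, which encodes Dectin-2, rose in WT mice by 2.76 (adjusted p = 0.0188) and Fcer1a, the IgE-binding chain of mast cells and basophils, was at least 7.86-fold lower after CaCl2 (adjusted p = 0.0073), and none was called in uMT mice (limma). Of 8 other Fc and Fc-like receptors, 1 rose on day 42 in uMT mice (Fcrls) and 3 in WT mice (Fcmr, Fcrla and Fcrls). Averaged over conditions 2 of them were lower in uMT than in WT mice, beside 1.71% of all names. They were Fcmr, the IgM receptor (difference -2.38, adjusted p = 0.00013), and Fcrla, a B cell protein (difference -1.52, adjusted p = 0.00063). B cells express both, and the B cell markers Ms4a1 and Cd79a were also lower in uMT mice.

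Of 9 cytokines, receptors and factors known to act on Fc receptor expression, 3 rose on day 42 in each genotype and none on day 7 (limma). C5ar1, the C5a receptor, whose signal shifts the balance toward activating receptors in mice, rose on day 42 by 3.11 in uMT mice (adjusted p = 0.0006) and 2.13 in WT mice (adjusted p = 0.0087). Irf8 rose in both genotypes, Tnf in uMT mice, by 2.86 (adjusted p = 0.0038), and Cebpa in WT mice, by 1.88 (adjusted p = 0.0393). Ifng, Il4, Il10 and Il13 did not pass the filter on dim probes.

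The markers of cells that carry these receptors were counted in the same fit. Of all names, 0.503% rose on day 7 in uMT mice and 2.98% in WT mice, and 4.62% and 6.8% rose on day 42. Of 12 macrophage and monocyte markers tested, 0 rose on day 7 in uMT mice and 1 in WT mice (limma), and 7 rose on day 42 in uMT mice and 9 in WT mice. The log2 of their summed signal ranged on day 42 from 9.03 to 9.61 after CaCl2 and from 8.62 to 9.43 after sham in uMT mice, and from 8.38 to 8.84 and from 7.99 to 8.20 in WT mice, so that the 2 ranges overlapped in uMT mice and not in WT mice. Of 8 neutrophil markers, 0 rose on day 7 in uMT mice and 2 in WT mice, and 3 on day 42 in each genotype. Their summed level ranged on day 42 from 8.20 to 8.88 after CaCl2 and from 8.01 to 8.80 after sham in uMT mice, and from 7.55 to 8.02 and from 7.16 to 10.2 in WT mice, where the dim array gave the highest value. Both sums add linear signals, so the brightest markers weigh most and the ranges do not measure the amount of these cells. The neutrophil sum averaged 7.43 in WT pre mice, with 3 to 5 of its 8 markers well above background on an array. In WT CaCl2 day 7 mice it averaged 7.84, with 8 of 8 well above background on each array. All 12 macrophage markers were well above background on every CaCl2 array. The part of these cells in the receptors' values was not tested.

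Rises in markers of other cell types were read against the 4.62% of all names that rose on day 42 in uMT mice and the 6.8% in WT mice. Falls were read against the 1.71% of all names that fell on day 42 in uMT mice and the 3.59% in WT mice, and against 0.391% and 3.61% on day 7. Of 6 NK cell markers 2 rose on day 42 in each genotype, and of 5 dendritic cell markers 4 rose in each, with 1 that fell in WT mice. Of 6 smooth muscle markers, 1 fell on day 42 in uMT mice and 5 in WT mice, and of 6 mast cell markers 2 fell in uMT mice and 0 in WT mice on day 42, against 1 and 4 on day 7. Of 6 endothelial markers 2 fell on day 42 in uMT mice and 1 in WT mice, of 5 B cell markers 0 rose in uMT mice and 1 in WT mice (Cd79b), and of 2 brown adipocyte markers 0 fell in uMT mice and 2 in WT mice.

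Across the 30 arrays the 4 receptors and Fcer1g were correlated with each other at r of 0.80 to 0.95, and Fcgrt with them at -0.02 to 0.38, as descriptions over arrays that share groups and slides. The RefSeq genes nearest to Fcgr1 were Slfn8 (r = 0.94), Rab29 and Scimp. Those nearest to Fcgr3 were Ms4a6d (r = 0.97), Sla and Clec4a3, and those nearest to Fcgr4 were Mpeg1 (r = 0.96), B430306N03Rik and Lpxn. Fcgr2b lay nearest to Il10ra (r = 0.98), Adgre1 and Wfdc17, and Fcgrt to Tmem204 (r = 0.96), Rnf181 and Pde6d. Selplg (r = 0.98) and Cd52 were among the 3 nearest to Fcer1g. Without WT sham day 42 replicate 2 the 3 nearest genes changed in part. They kept 2 of these 3 for Fcgr1 and Fcgr2b, 1 for Fcgr3, Fcgr4 and Fcer1g, and 0 for Fcgrt, whose nearest became Map1lc3b.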

How the data were processed

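Total RNA of mouse aortas was hybridised to 1-colour (Cy3) Agilent arrays, 3 per group. Spot intensities were made by the authors with Agilent Feature Extraction, version 10.7.1.1 per the file headers and 9.5.1.1 per the submitters' processing notes, and the processed intensity is background-subtracted and detrended, per the file headers. The authors' deposited value table, used as an alternative, holds intensities on a linear scale that were quantile-normalized (its sorted columns differ by at most 0.0008 relative), with a median of 24.2 in every column.

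From the intensities, control and flagged spots were left out, spots of a probe were averaged and log2 values were set relative to the 75th percentile of each array. Probes well above background on all 3 arrays of at least 1 group were kept (33224 of 55657), and the brightest stood for its gene. Names were updated through RefSeq accessions for 27221 probes, and 24290 kept the name in the file. limma 3.58.1 (R 4.3.3) fitted 1 mean per group over all 30 arrays, with Benjamini-Hochberg adjustment over 23267 names and a threshold of 0.05. The fit was tested on simulated data. Receptor ratios were tested by exact permutation within day. No spot was saturated, and the number of arrays limits the precision.

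The members, gene lists and tests were chosen with earlier results of these data known. Genes named are the members, at most 3 per list (those called with the largest differences, or 2 where none was called), the 3 RefSeq genes most correlated with each member, and the antibody features; some that the rule names are not reported here. Same-numbered samples were checked for pairing and did not deviate together in every pair of any comparison, so numbers were not used as pairs. The settings varied were the scaling, normexp background correction with an offset of 50, the filter, slide and replicate blocks, the compared groups alone, and leaving out arrays.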

Additional observations from a re-analysis of the deposited data

Results flagged for a closer look

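For 5 of the members, all arrays of one group lay above all arrays of the other in one comparison and below them in a matching comparison, which gave 13 values, and the difference between the matching comparisons was not tested here. By the same rule 19.3% of all names gave such values, 16.8% between uMT and WT mice and 0.924% between day 42 and day 7 after CaCl2. Between uMT and WT mice before operation the differences were 1.29 for Fcgr1, 1.49 for Fcgr3, 1.28 for Fcgr4 and 0.94 for Fcgr2b, all higher in uMT mice. For Fcgr1 they were -0.86 in sham mice on day 7, -1.28 after CaCl2 on day 7 and -1.03 after CaCl2 on day 42, all lower in uMT mice. For Fcgr3 the difference was -1.64 after CaCl2 on day 7, and for Fcgr4 it was -1.70 on day 7 and -0.68 on day 42. For Fcgr2b it was -0.55 after CaCl2 on day 42. Fcgrt on day 42 against day 7 after CaCl2 changed by -0.80 in uMT mice and by 0.61 in WT mice.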

How the results depend on the processing

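Of 2460 values of members and ratios under the alternatives, 2318 kept their side of the threshold, 85 passed it newly and 57 no longer passed it. None turned direction where a call was made, and 95 turned without being called under either setting. Counts below are members called of 6, and the cause of each change was not tested. For CaCl2 against sham on day 7 in WT mice (1 on all arrays) the count was 0 with quantile normalization, 0 with the authors' table, 0 when dim probes were kept, 6 when the 2 groups were fitted by themselves, 0 with a random and 0 with a fixed slide block, 5 with slide as a random block without WT sham day 42 replicate 2, 4 without the 6 dim arrays, and 0 to 4 leaving out 1 array. On day 42 in WT mice (4) it was 0 when those groups were fitted by themselves and 0 with either slide block. On day 7 in uMT mice (0) it was 2 with slide as a random block without that array, 2 without the 6 dim arrays and 0 to 1 leaving out 1 array. On day 42 in uMT mice (4) it was 1 when those groups were fitted by themselves, 0 with a random slide block, 0 without the 6 dim arrays and 0 to 5 leaving out 1 array.

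Between uMT and WT mice (0 in each condition), slide as a random block without WT sham day 42 replicate 2 gave 3 before operation, 5 in sham mice on day 42, 3 after CaCl2 on day 7, 2 after CaCl2 on day 42 and 5 on average. Leaving out 1 array gave 0 to 1, 0 to 4, 0 to 1, 0 to 1 and 0 to 3 in the same order. Without the 6 dim arrays 4 were called after CaCl2 on day 7, and with the compared groups alone 1 after CaCl2 on day 42. For sham against pre (1 in each genotype), uMT mice had 2 with slide as a random block without that array and 0 to 2 leaving out 1 array, 0 being without uMT pre replicate 2. WT mice had 2 with the percentile taken from probes detected on every array, 3 with slide as a random or fixed block, 5 with slide as a random block without that array, 5 without the 6 dim arrays and 1 to 5 leaving out 1 array. The receptor ratios (0 of 12) gave 0 to 2 leaving out 1 array, the 2 being without WT sham day 42 replicate 1. The replicate block, in numbers that do not pair the samples, gave 1 member called on day 7 in WT mice and changed no other call. Another probe per member could not be tried, since each has 1. A fixed slide block could not be fitted for comparisons of uMT CaCl2 arrays with sham or WT arrays, which share no slide with them.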
